A study of Arabidopsis thaliana with 12 samples.

Results

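Timing genes of the clock, of day length sensing and of light signalling were followed in Arabidopsis thaliana leaves that lacked the cysteine-degrading enzyme DES1 or had been given sulfide. They are GI, CDF5, CCL, HYH, COR27 and COR28, chosen by gene from the annotation of the array's probe sets. The choice was made with earlier results of these data known. Each of the 6 genes had 1 probe set (a group of short probes read as 1 transcript), out of 22746 probe sets tested, and none of the 6 probe sets was shared with another listed gene. CDF5 and COR28 stand in the annotation under their loci only, AT1G69570 and AT4G33980. The arrays were Affymetrix ATH1 arrays of leaf RNA, 12 in all and 3 for each of 4 groups. The groups were Col-0 wild type with water, Col-0 wild type with sodium sulfide (Na2S), the des1-1 mutant with water and the des1-1 mutant with Na2S. The des1-1 mutant (SALK_103855, in the Col-0 background) is 1 insertion line, with no second allele or rescued line, so other changes that the line carries cannot be told apart from the loss of DES1. All plants grew in soil with 16 h of light at 20 °C and 8 h of dark at 18 °C. They were watered as above for 10 days from day 20, with Na2S given as 200 mM in the labels, and were 30 days old at harvest. The untreated plants had plain water, so sulfide cannot be told apart from sodium or other properties of the solution. The labels give no hour of harvest, so for clock-controlled transcripts a change of level and a change of phase cannot be told apart.

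The plant clock is a set of transcription factors that repress or activate each other in turn over the day, and its output sets the hour at which many leaf transcripts peak. GI (GIGANTEA) is an afternoon protein that, with a blue light receptor, removes the CDF repressors and so lets long days induce flowering. CDF5 is a cycling DOF repressor of that route, CCL (CCR-like) is a clock-controlled transcript known for its rapid decay, and HYH is the close homologue of HY5, the bZIP factor that drives light responses. COR27 and COR28 are small proteins of the dusk and of the cold response that act on clock genes and on light signalling.

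Expression is given on the log2 scale, as computed by the robust multi-array average method (RMA), so a difference of 1 is a 2-fold change. The array medians lay between 5.71 and 5.80, and arrays within a group correlated at 0.9929 to 0.9975 across probe sets. By these measures no array stood apart. The leaf label was checked with 8 mesophyll markers, of which 4 were measured (RCA, LHCB4.1, PSAN and PSBW). All 4 stood at percentile 99.2 or above among the probe sets of every array. The DES1 transcript was not analysed here, so the mutant's label was not checked against its own gene.

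GI was highest in untreated wild type and fell with the loss of DES1 and with Na2S. Its log2 values were 7.72, 7.64 and 7.60 on the 3 arrays of untreated wild type and 6.43, 6.65 and 6.83 in untreated des1. They were 5.91, 6.19 and 6.03 in treated wild type and 5.90, 6.04 and 5.78 in treated des1. The untreated wild type arrays lay above all others, the untreated des1 arrays came next, and the treated groups overlapped. GI was 2.02-fold lower in des1 than in wild type under water (-1.02 ± 0.117 SE, with 3 arrays in each group, limma adjusted p = 8.6e-07). With Na2S it fell 3.05-fold in wild type (-1.61 ± 0.117, limma adjusted p = 4.66e-09) and 1.66-fold in des1 (-0.73 ± 0.117, limma adjusted p = 6.61e-05). In bulk leaf RNA, fewer cells that express a gene and less of its RNA per cell cannot be told apart, here and for every gene that follows.

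The GI complex acts on CDF proteins, whereas the arrays measure RNA, and a link between the GI and CDF5 transcripts was not tested. CDF5 went the other way from GI in that it was lowest in untreated wild type. It read 5.76, 6.11 and 5.84 in untreated wild type, against 7.22, 7.86 and 7.73 in untreated des1. Treated wild type gave 7.41, 7.34 and 7.38, and treated des1 gave 7.47, 7.53 and 7.57. Untreated wild type alone was low, and the other 3 groups lay close together, where the widest gap was that of treated wild type below untreated des1 (log2 difference -0.23, which did not pass). CDF5 rose 3.25-fold in untreated des1 (1.70 ± 0.139 SE, with 3 arrays in each group, limma adjusted p = 9.86e-09) and 2.78-fold with Na2S in wild type (1.47 ± 0.139, limma adjusted p = 1.4e-07). In des1, treated and untreated plants differed by -0.08, with a 95% interval from -0.37 to 0.21.

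CCL moved over the widest range of the 6 genes. Its values were 12.15, 12.33 and 12.20 in untreated wild type and 10.58, 10.62 and 10.55 in untreated des1. In treated wild type they were 8.30, 8.29 and 8.39, and in treated des1 8.17, 8.29 and 8.13. The SD within a group was 0.035 to 0.093, while the group means spanned 4.03 log2 units, or 16.3-fold. Under water CCL was 3.12-fold lower in des1 than in wild type (-1.64 ± 0.0946 SE, with 3 arrays in each group, limma adjusted p = 9.01e-11). With Na2S it fell 14.9-fold in wild type (-3.90 ± 0.0946, limma adjusted p = 3.13e-15) and 5.23-fold in des1 (-2.39 ± 0.0946, limma adjusted p = 1.58e-12). By size, the change in treated wild type stood at percentile 99.9 of all probe sets.

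HYH was low in untreated wild type and high in the other 3 groups. Untreated wild type gave 5.44, 5.22 and 5.65, and untreated des1 gave 9.01, 9.11 and 8.86. The values were 9.31, 9.18 and 8.96 in treated wild type and 9.27, 8.94 and 9.20 in treated des1. Every array of the 3 high groups lay far above the untreated wild type arrays, and those 3 groups overlapped with each other. HYH rose 11.8-fold in untreated des1 (3.56 ± 0.130 SE, with 3 arrays in each group, limma adjusted p = 2.24e-13) and 13.1-fold with Na2S in wild type (3.71 ± 0.130, limma adjusted p = 2.8e-13). Na2S made a difference of 0.14 in des1 without passing the test, with a 95% interval from -0.13 to 0.42.

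COR27 and COR28 gave signals near the bottom of every array, between percentiles 4.6 and 24.8 of the probe sets. COR27 read 3.33, 3.40 and 3.41 in untreated wild type, 3.64, 3.63 and 3.68 in untreated des1, 3.73, 3.35 and 3.21 in treated wild type and 3.24, 3.13 and 3.40 in treated des1. The 3 untreated des1 values lay above those of untreated wild type and of treated des1, by small margins. Of all probe sets 50.2% did not overlap between the untreated genotypes and 46.2% between the des1 groups. COR27 was 1.31-fold lower in treated than in untreated des1 (-0.39 ± 0.121 SE, with 3 arrays in each group, limma adjusted p = 0.0152), a call that was lost without des1 Na2S replicate 2 (limma adjusted p = 0.072). Its difference of 0.27 between the genotypes under water did not pass (limma adjusted p = 0.0826). COR28 read 3.49, 3.56 and 3.62 in untreated wild type, 3.43, 3.34 and 3.39 in untreated des1, 3.26, 3.17 and 3.67 in treated wild type and 3.24, 3.42 and 3.44 in treated des1. It passed in 0 of the 5 comparisons, with 0 at an unadjusted p under 0.05. COR28 passed for Na2S in wild type when wild type Na2S replicate 3 was left out (limma adjusted p = 0.0276), and COR27 passed between the genotypes under water without wild type Na2S replicate 1 (limma adjusted p = 0.0296). RMA is known to compress differences of dim transcripts.

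**Figure D1:**
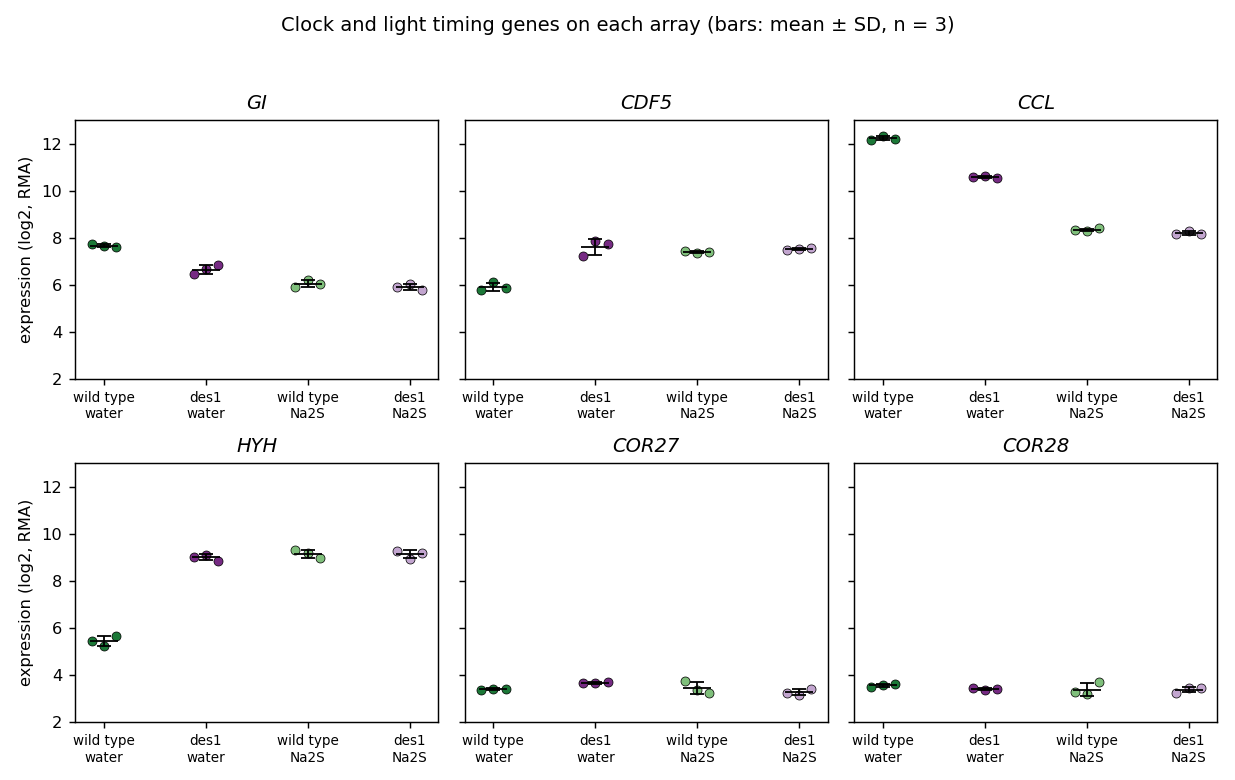
Log2 expression (RMA, vertical axis) of the 6 genes on each of the 12 arrays, by genotype and watering (horizontal axis), with points for arrays and bars for the mean ± SD of 3. HYH and CDF5 are low in untreated wild type only, GI and CCL step down from untreated wild type to untreated des1 to the treated groups, and COR27 and COR28 stay between 3.13 and 3.73.

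The comparison of des1 with wild type under water asks what loss of DES1 does to these transcripts when no sulfide is supplied. Of the 6 genes, CDF5 and HYH rose, GI and CCL fell, and COR27 and COR28 did not pass. Over all probe sets 44.7% passed in this comparison (22.0% higher and 22.6% lower in des1), so the count of 4 of 6 has to be read against a transcriptome in which changes were common. In size the median absolute difference of the 6 genes was 1.33, against 0.25 over all probe sets. The 6 genes were chosen with earlier results of these data known. Contrasts of their size with all probe sets, here and below, are therefore descriptions and no test. HYH stood at percentile 99.5 of the absolute differences, CDF5 at percentile 95.3, CCL at percentile 94.9 and GI at percentile 87.1. The 3 values of each genotype did not overlap for all 6 genes, and 50.2% of all probe sets had this property. COR27 and COR28 are among those that did not overlap and yet did not pass the test.

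The comparison of the genotypes under Na2S asks whether des1 and wild type still differ once sulfide is supplied. None of the 6 genes passed limma (0 of 6, with 0 at an unadjusted p under 0.05). Of all probe sets 1.40% passed (0.585% higher and 0.813% lower in des1), so 0 of 6 does not set these genes apart. The median absolute difference of the 6 genes was 0.13, against 0.10 over all probe sets. The difference of des1 minus wild type was -0.14 for GI (95% interval -0.38 to 0.11), 0.15 for CDF5 (-0.14 to 0.44), -0.13 for CCL (-0.33 to 0.07) and -0.01 for HYH (-0.29 to 0.26). COR27 differed by -0.17 (-0.43 to 0.08) and COR28 by 0.00 (-0.25 to 0.25). All 6 intervals include 0. For HYH, CDF5, CCL and GI they lie apart from the intervals found under water.

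The effect of Na2S was taken within each genotype. In wild type CDF5 and HYH rose, GI and CCL fell, and COR27 and COR28 did not pass, with 30.4% of all probe sets passing (15.0% higher and 15.4% lower with Na2S). The median absolute difference of the 6 genes was 1.54, against 0.19 over all probe sets. In des1 GI, CCL and COR27 fell, none rose, and CDF5, HYH and COR28 did not pass, with 37.1% of all probe sets passing (17.5% higher and 19.6% lower with Na2S). There the median absolute difference was 0.27, against 0.21 over all probe sets. The comparisons within wild type and between the untreated genotypes share the untreated wild type arrays, so their like directions are not separate observations.

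The interaction, which is the Na2S effect in des1 minus that in wild type, tests whether the response differed between the genotypes. It passed for HYH (-3.57 ± 0.184 SE, limma adjusted p = 5.62e-11), CDF5 (-1.55 ± 0.196, limma adjusted p = 4.36e-06), CCL (1.51 ± 0.134, limma adjusted p = 5.61e-08) and GI (0.88 ± 0.165, limma adjusted p = 0.000309). It did not pass for COR27 (-0.44 ± 0.171, limma adjusted p = 0.0503) or COR28 (0.17 ± 0.169, limma adjusted p = 0.493). The COR27 interaction passed under several of the alternatives listed below. Among them were leaving out des1 Na2S replicate 3 (limma adjusted p = 0.0365) or wild type Na2S replicate 3 (limma adjusted p = 0.0156). Over the alternatives its limma adjusted p lay between 0.0156 and 0.134. Over all probe sets 37.7% passed, 18.6% with a higher and 19.1% with a lower value. For GI and CCL the fall in des1 was smaller than in wild type, and both started from a lower level in untreated des1. For CDF5 and HYH the rise was seen in wild type and had no counterpart in des1, where both genes were already high under water.

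**Figure D2:**
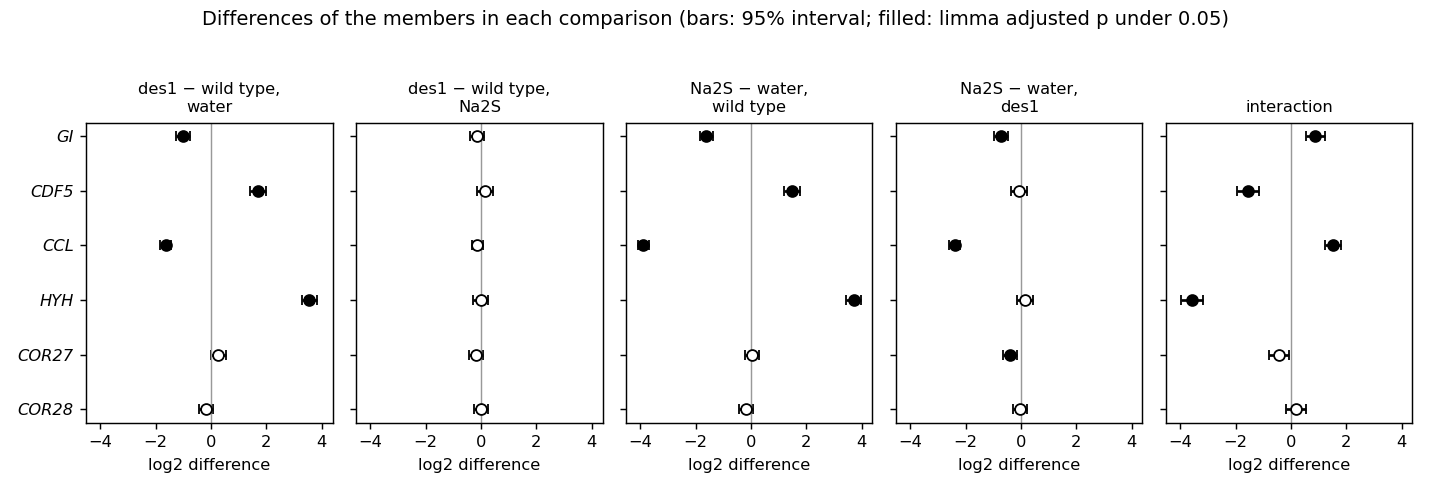
Log2 differences (horizontal axes) of the 6 genes (vertical axis) in the comparisons named above each panel, with 95% intervals of the limma fit to 12 arrays. Filled points passed at an adjusted p under 0.05. Under Na2S all 6 differences between the genotypes lie near 0, between -0.17 and 0.15, and all 6 points there are open.

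The order of the 4 groups differed between the genes. GI and CCL had the same order of group means, from untreated wild type through untreated des1 and treated wild type to treated des1. The first step down was 1.02 for GI and 1.64 for CCL, and both passed. The second step, from untreated des1 to treated wild type, was 0.59 for GI (limma adjusted p = 0.000583) and 2.26 for CCL (limma adjusted p = 4.24e-12). The last step, between the treated groups, did not pass for either gene. In HYH and CDF5 only the step to untreated wild type passed. Neighbours among the other 3 groups overlapped in HYH. In CDF5 the treated wild type arrays lay below the treated des1 arrays without overlap, by 0.15, which did not pass (limma adjusted p = 0.738), and 16.9% of all probe sets did not overlap between these groups. In COR27 and COR28 no step between neighbouring groups passed. The contrasts of treated wild type with untreated des1, in which 34.5% of all probe sets passed, and of treated des1 with untreated wild type, in which 30.3% passed, were added after the values were seen.

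The range of the 4 group means placed CCL at percentile 99.7, HYH at percentile 99.5, GI at percentile 94.5 and CDF5 at percentile 94.0 of all probe sets. COR27 stood at percentile 49.3 and COR28 at percentile 20.5. The group means spanned 3.71 for HYH, 1.75 for GI, 1.70 for CDF5, 0.39 for COR27 and 0.19 for COR28, where the median over all probe sets was 0.40. With each gene centred on its mean over the 12 arrays, the values of GI and CDF5 differed by a root mean square of 1.35, and by 0.41 once CDF5 was turned in sign. They were not mirror images in des1, where GI fell with Na2S and CDF5 did not pass. The same measure was 3.14 for CCL and HYH, and 0.92 with HYH turned.

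Likeness of pattern was measured by this root mean square difference in centred log2 values over the 12 arrays, among probe sets of exactly 1 gene, as a description. The nearest to HYH was AT5G47610 (0.19), which read 5.80 in untreated wild type and 9.37, 9.21 and 9.12 as means of treated wild type, untreated des1 and treated des1. AT3G15310 (0.26) and TBL26 (0.27) came next. CDF5 was nearest to AT5G50100 (0.11), AT4G12000 (0.14) and PMEPCRF (0.16). GI was nearest to AT1G63880 (0.15), AT4G38550 (0.16) and AT2G46550 (0.17). CCL was nearest to AT3G51660 (0.19), whose group means were 8.12 in untreated wild type, 6.87 in untreated des1, 4.57 in treated wild type and 4.49 in treated des1. Its next were AT1G33970 (0.38) and AT2G15960 (0.39). For COR27 these were AT4G09340 (0.06), AT1G09730 (0.07) and AT2G25280 (0.08), and for COR28 AT5G15880 (0.09), AT2G26810 (0.09) and AT1G45090 (0.09). COR27 and COR28 themselves differed by 0.27 on this measure.

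Few other genes of the pathway were measured under a listed gene. Of 26 core clock genes 3 were used. RVE6, a MYB-like clock activator, rose 2.49-fold in untreated des1 (1.32 ± 0.112 SE, with 3 arrays in each group, limma adjusted p = 1.75e-08) and 1.78-fold with Na2S in wild type (0.83 ± 0.112). It fell with Na2S in des1 (-0.54 ± 0.112), to about the level of treated wild type (7.14 and 7.20). FIO1 and XCT, whose mutants change the period of the clock, passed in 0 of the 5 comparisons, with 1 at an unadjusted p under 0.05 for FIO1 (-0.32 under water) and 0 for XCT. The central oscillator genes, among them CCA1, LHY, TOC1 and the PRR genes, were not analysed here, nor were the 11 clock and dark output genes listed.

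Of 23 photoperiod and flowering genes 2 were used. SPY, an O-fucosyltransferase that modifies the clock protein PRR5, was higher in untreated des1 (0.42 ± 0.119, limma adjusted p = 0.00686) and fell with Na2S in des1 (-0.36 ± 0.119, limma adjusted p = 0.0223). FD, the bZIP partner of florigen, passed in 0 of 5 comparisons, with 0 at an unadjusted p under 0.05. Of 40 light signalling genes 1 was used. FHL, which carries phytochrome A into the nucleus, fell with Na2S in wild type (-0.34 ± 0.108, limma adjusted p = 0.0209), at a signal between percentiles 5.5 and 26.0 of the arrays. In des1 its difference was -0.28, which did not pass (limma adjusted p = 0.0529), and nor did its interaction (0.07, limma adjusted p = 0.784). HY5 and COP1, the closest partners of HYH, were not analysed here.

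Another 5 genes came from a search of gene names for words of clock and light, made after the values were seen. Light-harvesting antenna genes among its hits were left out by hand, so these genes are described with no test. AFR is an F-box protein of phytochrome A signalling. It read 8.11, 8.38 and 8.11 in untreated wild type and 11.01, 11.18 and 11.03 in untreated des1, with 10.47, 10.58 and 10.59 in treated wild type and 10.40, 10.46 and 10.53 in treated des1. The untreated wild type arrays were the lowest, as for HYH, the untreated des1 arrays were the highest, and the treated groups overlapped. PHL, which links phytochrome B to flowering, had means of 6.46 ± 0.201 (SD, n = 3) in untreated wild type, 6.77 ± 0.125 in untreated des1, 6.33 ± 0.021 in treated wild type and 6.36 ± 0.051 in treated des1. DNF, a RING protein that holds back flowering, had group means between 3.18 and 3.36. BLUS1, a kinase of blue light stomatal opening, had group means between 6.27 and 6.50, and LIP1, a small GTPase of light input to the clock, between 6.90 and 7.14.

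Of 10 other cold-responsive genes, listed because COR27 and COR28 respond to cold, 4 were used. All 4 fell with Na2S in wild type, with a median of -1.32 against 0.03 over all probe sets, of which 15.4% were called lower. In des1 3 of the 4 fell, with a median of -1.10 against 0.02 over all probe sets, of which 19.6% were called lower. COR15B, a chloroplast protein of freezing tolerance, was also lower in untreated des1 (-2.19 ± 0.126, limma adjusted p = 8.44e-11), where LTI30 (0.54) and COR47 (0.75), both dehydrins, were higher. Under water 22.0% of all probe sets were called higher in des1 and 22.6% lower. LTI30 was also higher in des1 under Na2S (0.79 ± 0.150, limma adjusted p = 0.00886), the 1 gene of the 4 that passed there. Of all probe sets 0.585% were called higher in des1 under Na2S and 0.813% lower.

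**Figure D3:**
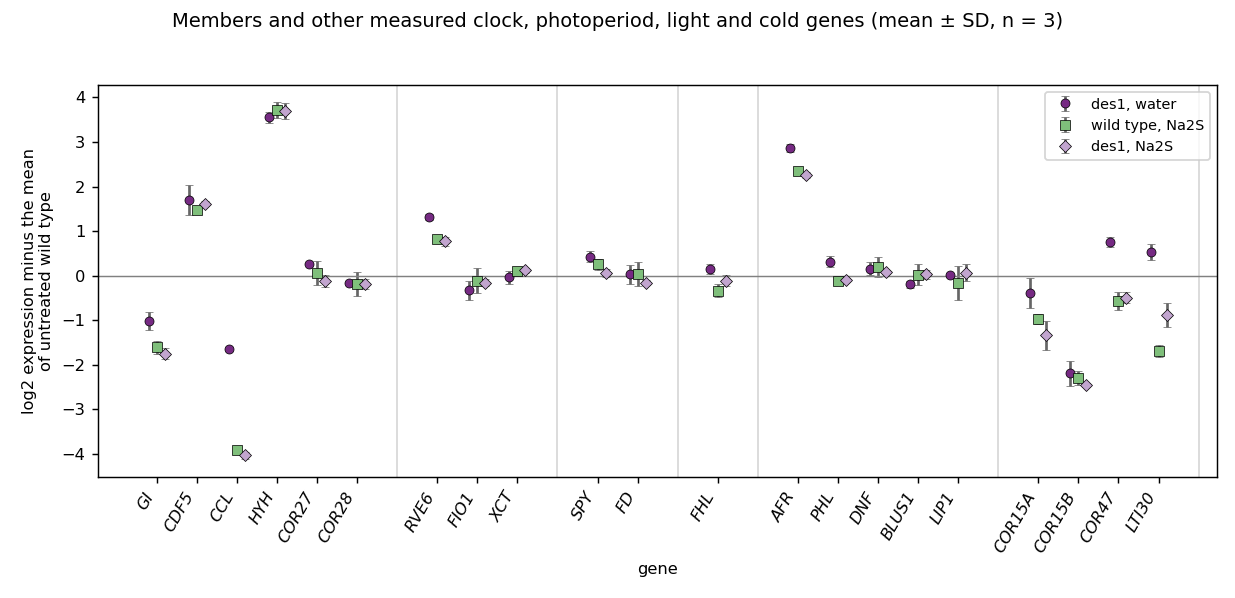
Mean log2 expression minus the mean of untreated wild type (vertical axis, ± SD of 3 arrays) for the 6 genes and the other measured genes named in the text (horizontal axis) in the other 3 groups. AFR and RVE6 lie above 0 in all 3 groups as CDF5 and HYH do, and COR15B lies below 0 in all 3 as GI and CCL do. COR15A lies below 0 as well, but its difference in untreated des1 did not pass (-0.39, limma adjusted p = 0.0697). SPY and DNF also lie above 0 in all 3 groups, and FIO1 and COR28 below 0.

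Of the marker lists of other cell types, PYK10 alone separated untreated wild type from all other groups. Of 6 root markers 2 were measured. PYK10, a beta-glucosidase of ER bodies known mainly from roots, read 6.60, 6.49 and 6.99 in untreated wild type and between 3.26 and 3.70 on every other array, while EXPA7, an expansin of root hairs, stayed between 3.52 and 4.25. The summed linear level of the pair was 105 to 139 in untreated wild type, 22 to 25 in untreated des1, 25 to 27 in treated wild type and 25 to 30 in treated des1. Untreated wild type is the group in which HYH, CDF5 and AFR were low and GI and CCL high. Of 4 guard cell markers 2 were measured, GC1 and FAMA, with summed levels of 1626 to 2148 in untreated wild type, 813 to 1000 in untreated des1, 1324 to 1343 in treated wild type and 1714 to 1788 in treated des1. The 4 mesophyll markers summed to 54500 to 56836, 48998 to 49768, 52092 to 56314 and 53655 to 58867 in the same order. The mesophyll sums hold changes in both directions. In untreated des1 RCA was higher (0.32, limma adjusted p = 0.006) while LHCB4.1 (-0.64), PSAN (-0.49) and PSBW (-0.33) were lower. RCA was lowest in untreated wild type, without overlap with any other group. Of all probe sets 50.2% did not overlap between the untreated genotypes. For untreated wild type this share was 40.9% against treated wild type and 41.2% against treated des1. For both guard cell markers the untreated des1 arrays lay below all others. For untreated des1 the share was 46.2% against treated des1 and 43.2% against treated wild type. Against untreated wild type GC1 differed by -1.15 (limma adjusted p = 1.5e-07) and FAMA by -0.34 (limma adjusted p = 0.0208). In that comparison 22.6% of all probe sets were called lower. No marker of the vascular, epidermal or flower and seed lists was used (0 of 4, 0 of 4 and 0 of 6). The part of these cell types in the results was not tested.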

How the data were processed

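Leaf RNA of 12 samples was hybridised to 1-colour Affymetrix ATH1 arrays. The deposited table holds log2 expression values which the authors computed by RMA with affy in R. This comes from the submitters' processing notes, and the log2 scale is that of the deposited values. Versions are not given in the sources used here. Whether all 12 arrays were processed together is not stated. Arrays give no read depth, and their number limits the precision. Sample titles gave the groups and replicate numbers. Replicates are biological according to the design text.

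Of 22810 probe sets, 64 controls were left out and 22746 tested. Of these 13513 had 1 listed gene, 503 several and 8730 none, and 13436 of the first were matched to a locus of assembly TAIR10.1, from which names alone were taken. With limma 3.58.1 in R 4.3.3, 1 model with 4 group means covered all 12 arrays. The Benjamini-Hochberg adjustment of p-values ran over all probe sets of a comparison, with a threshold of 0.05. The fit was tested on simulated data. Errors are limma standard errors (SE) unless given as SD.

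The 6 genes, the lists and the naming rule were chosen with earlier results of these data known. Named were the 6 genes, up to 5 measured genes of each list by largest difference, and the 3 probe sets of 1 gene most like each member. Tried as alternatives were repeated quantile normalization, median centring, leaving out probe sets dimmer than the 40th percentile, a robust variance with a trend, weighted arrays, a fit to just the arrays being compared, a replicate block, a minimum change of 2-fold, only those probe sets that list 1 gene, and leaving out every array in turn.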

Additional observations from a re-analysis of the deposited data

Results flagged for a closer look

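The effect of Na2S differed between des1 and wild type, by the interaction term of the limma fit (adjusted p under 0.05), for several of the genes named in the report. Values are the log2 effect in des1 minus that in wild type. Among the 6 timing genes HYH had -3.57, CDF5 had -1.55, CCL had 1.51 and GI had 0.88. Of the other clock and photoperiod genes RVE6 had -1.37 and SPY had -0.62. The cold-responsive genes COR15B (2.03) and COR47 (-0.67) differed as well. Over all probe sets 37.7% passed this test, so such differences were common in these leaves.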

How the results depend on the processing

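Over 21 alternatives and 5 comparisons, 607 of 620 values of the 6 genes kept their side of the threshold. HYH, CDF5 and CCL kept theirs in all 105 values each. GI kept 103 of 105, the exceptions being the 2-fold minimum for Na2S in des1 and for the interaction, since the differences (-0.73 and 0.88) are below that size. Part of the 620 values had little room to change. Leaving out an array that is not in a comparison keeps the difference as it was and alters just its test. The 2-fold minimum can only remove calls. The 10 changes in COR27 and 1 in COR28 fell on dim signals, and the filter on dim probe sets leaves out both genes. COR27 under water passed with array weights (adjusted p = 0.0107), with only the arrays compared (0.0404) and without wild type Na2S replicate 1 (0.0296), and its interaction had limma adjusted p between 0.0156 and 0.134. COR28 passed for Na2S in wild type without wild type Na2S replicate 3 (limma adjusted p = 0.0276). The count of the 6 genes called for Na2S in des1 was 1 with the 2-fold minimum, against 3. With the 2-fold minimum 3018 probe sets of all were called for the genotypes under water, 51 under Na2S, 1492 for Na2S in wild type, 1713 for Na2S in des1 and 3420 for the interaction, against 10166, 318, 6919, 8443 and 8573. With probe sets of 1 gene only, fewer being tested, these were 5397, 134, 3526, 4442 and 4472. Under Na2S array weights gave 838 calls between the genotypes, and leaving out single arrays gave 186 to 357. It was 186 or 205 when replicate 2 or 1 of treated wild type was left out, and 189, 198 or 207 when replicate 1, 2 or 3 of treated des1 was. The cause was not tested. Same-numbered arrays showed no common deviation, with 1 of 18 correlations over 0.1 (range -0.215 to 0.162). Such correlations cannot exclude that the numbers pair the samples. With the replicate number as a block the counts of the 6 genes called were 4, 0, 4, 3 and 4 in the same order, as without it, and 10025, 274, 6728, 8235 and 8401 over all probe sets. The number of arrays, 3 per group, limits the precision.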
